A study of Rattus norvegicus with 10 samples.

Results

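The Wnt pathway genes described here are 10 genes with 16 probe sets, chosen as the probe sets for which the platform annotation gives 1 gene symbol and that symbol is one of the 10, out of 10411 genes named in this way and 15866 probe sets that are not controls. They comprise the ligands Wnt4 and Wnt5a, the receptor Fzd1 and the intracellular effector Ctnnb1. The others are the secreted antagonists Frzb, Sfrp1, Sfrp2, Sfrp4 and Wif1, and Dkk3 of the Dickkopf family. Levels of all 10 genes were measured in whole mammary glands of female Sprague-Dawley (SD) rats at postnatal day 21. In one group the protein of the AIN-93G diet, a standard purified feed for rodents, was soy protein isolate from gestation day 4 until weaning (5 arrays, soy 147, 149, 155, 157 and 159), and in the control group it was casein over the same time (5 arrays, casein 6, 7, 10, 18 and 20). No genetic change, drug or hormone is named in the labels for either diet. The study asked how soy in the diet acts on the mammary gland early in life.

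Wnt proteins are secreted, lipid-modified ligands that bind Frizzled receptors at the cell surface. In the canonical branch this binding stops the destruction of beta-catenin, which then enters the nucleus and acts with TCF/LEF factors on target genes, while the noncanonical branch acts on cell shape and movement without beta-catenin. Secreted antagonists bind either the Wnt ligands or their receptors outside the cell. In the mammary gland, work in mice has tied Wnt4 to progesterone-driven side branching and Wnt5a to restraint of ductal growth.

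None of the 16 probe sets passed the test between the diets, and neither did any of the 15866 probe sets on the array. Wnt5a was the 1 member whose diets did not overlap, with a higher signal on all 5 soy arrays than on any casein array. In either direction, the diets did not overlap at 158 of all 15866 probe sets (0.996%). The only Wnt5a probe set was dim, below the 40th percentile of mean signal. The signal of the antagonist Frzb had the smallest p of the members in the model fit, with a mean of 322.1 on soy and 245.5 on casein arrays, and the antagonist Wif1 averaged 112.9 on soy and 143.5 on casein arrays. Wnt4 and Dkk3 varied widely between arrays of the same diet, and within each diet both were highest on the array with the highest luminal marker signal.

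The start regions of Wnt5a, Frzb and Wif1 are shown because these 3 members had the smallest exact permutation p between the diets. Each runs from 250 bases before to 50 bases after the start of the gene, 5′ to 3′ on the strand of the gene, as given by RefSeq for build GRCr8. Wnt5a lies at chr16:3703415-3703714 on the plus strand, Frzb at chr3:85772047-85772346 on the minus strand and Wif1 at chr7:58433329-58433628 on the plus strand. Capitals mark the letters CTTTGA or CTTTGT on either strand, the core that TCF/LEF factors, the nuclear partners of beta-catenin, recognise.
Wnt5a: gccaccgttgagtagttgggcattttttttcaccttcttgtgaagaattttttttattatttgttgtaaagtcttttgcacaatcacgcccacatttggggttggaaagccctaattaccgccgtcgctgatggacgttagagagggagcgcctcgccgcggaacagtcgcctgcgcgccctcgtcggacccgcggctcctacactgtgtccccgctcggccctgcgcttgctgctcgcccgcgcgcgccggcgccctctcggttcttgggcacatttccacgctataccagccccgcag
Frzb: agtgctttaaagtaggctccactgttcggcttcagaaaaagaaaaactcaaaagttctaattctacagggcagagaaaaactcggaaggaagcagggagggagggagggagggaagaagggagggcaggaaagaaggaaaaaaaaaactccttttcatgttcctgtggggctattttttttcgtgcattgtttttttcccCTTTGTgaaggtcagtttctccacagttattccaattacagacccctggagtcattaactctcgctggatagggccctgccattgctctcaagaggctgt
Wif1: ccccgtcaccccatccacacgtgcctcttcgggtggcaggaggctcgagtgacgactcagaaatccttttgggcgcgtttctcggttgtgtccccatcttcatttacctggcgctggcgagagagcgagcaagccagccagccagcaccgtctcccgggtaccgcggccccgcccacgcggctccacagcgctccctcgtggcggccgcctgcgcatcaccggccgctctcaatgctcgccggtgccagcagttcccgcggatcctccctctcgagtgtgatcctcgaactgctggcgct
Of the 10 members, 7 had an entry in the table of start regions, and Sfrp1, Sfrp4 and Dkk3 are named only. The core was present in 2 of these 7, once in Frzb from 50 bases before the start and once in Ctnnb1 from 5 bases before it. It was present in 31.4% of all 33469 start regions of this length, so the members' share was close to that of genes at large. A match is a string of letters and not a measured binding site.

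Values below are MAS5 signals on a linear scale, in the arbitrary units of the deposited table, in which the trimmed mean of every array is 500.1. Each difference is the mean log2 signal on soy minus that on casein arrays, where a signal under 1 counts as 1. They were tested in limma across all 15866 probe sets, with Benjamini-Hochberg adjustment and a threshold of 0.05, and the difference of means at each of the 16 member probe sets was also tested with an exact two-sided permutation test over the 252 ways of dividing the arrays. The smallest p which that test can give is 0.0079. In limma the adjusted p was under 0.05 at 0 of 15866 probe sets (0%) and at least 0.233 at each, while the unadjusted p was under 0.05 at 843 (5.31%), of which 510 were higher (3.21%) and 333 lower (2.1%) in soy. Of the 16 member probe sets, 0 had an adjusted p under 0.05 in limma and 1 (6.25%), of Frzb and higher in soy, had an unadjusted p under 0.05, a share near that of all probe sets. The diets did not overlap at 158 of all probe sets (0.996%), 110 of them higher (0.693%) and 48 lower (0.303%) in soy, and at 1 of the 16 member probe sets, of Wnt5a and higher in soy. No detection calls were used, so a dim signal could not be set against background, and 6 of the 16 probe sets, including the only ones of Wnt4, Wnt5a and Wif1, lay below a mean signal of 177.1, the 40th percentile of all probe sets. Levels of different probe sets are not compared, because probe sets differ in how strongly they bind.

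Per the labels, 3 replicate targets were prepared from each pool of RNA, so arrays may share animals, and every p-value here rests on a spread between samples that may be partly technical. Any pair of arrays had a Spearman correlation of 0.924 to 0.983 over all probe sets, and no pair held identical values. Fat cell markers were bright on every array, with Fabp4 signals of 10554.3 or more. Epithelial markers were uneven, with a range of 23.1 to 3373.2 for the luminal adhesion gene Epcam and of 17.3 to 1816.7 for the basal keratin Krt14. The mean log2 signal of the 21 measured skeletal muscle markers was 10.85 to 12.53 on soy 147, 149 and 157 and casein 6, and 5.965 to 7.54 on the other 6 arrays. That of the 14 measured lymph node markers was 6.004 on soy 149 and 6.044 on casein 6, and 8.696 to 9.553 on the other 8. The ratio of the 3′ to the 5′ actin control signal, a measure of RNA integrity, was 1.41 to 1.57 on soy and 1.22 to 1.55 on casein arrays. On casein 6, 7 and 10 it was 1.33, 1.3 and 1.22, below every soy array. The same ratio for Gapdh was 1.14, 1.16 and 1.13 on these arrays, against 1.28 to 1.56 on soy arrays. Casein 18 and casein 20 lay within the soy range on both ratios. The part of RNA integrity in the differences was not tested.

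**Figure D1:**
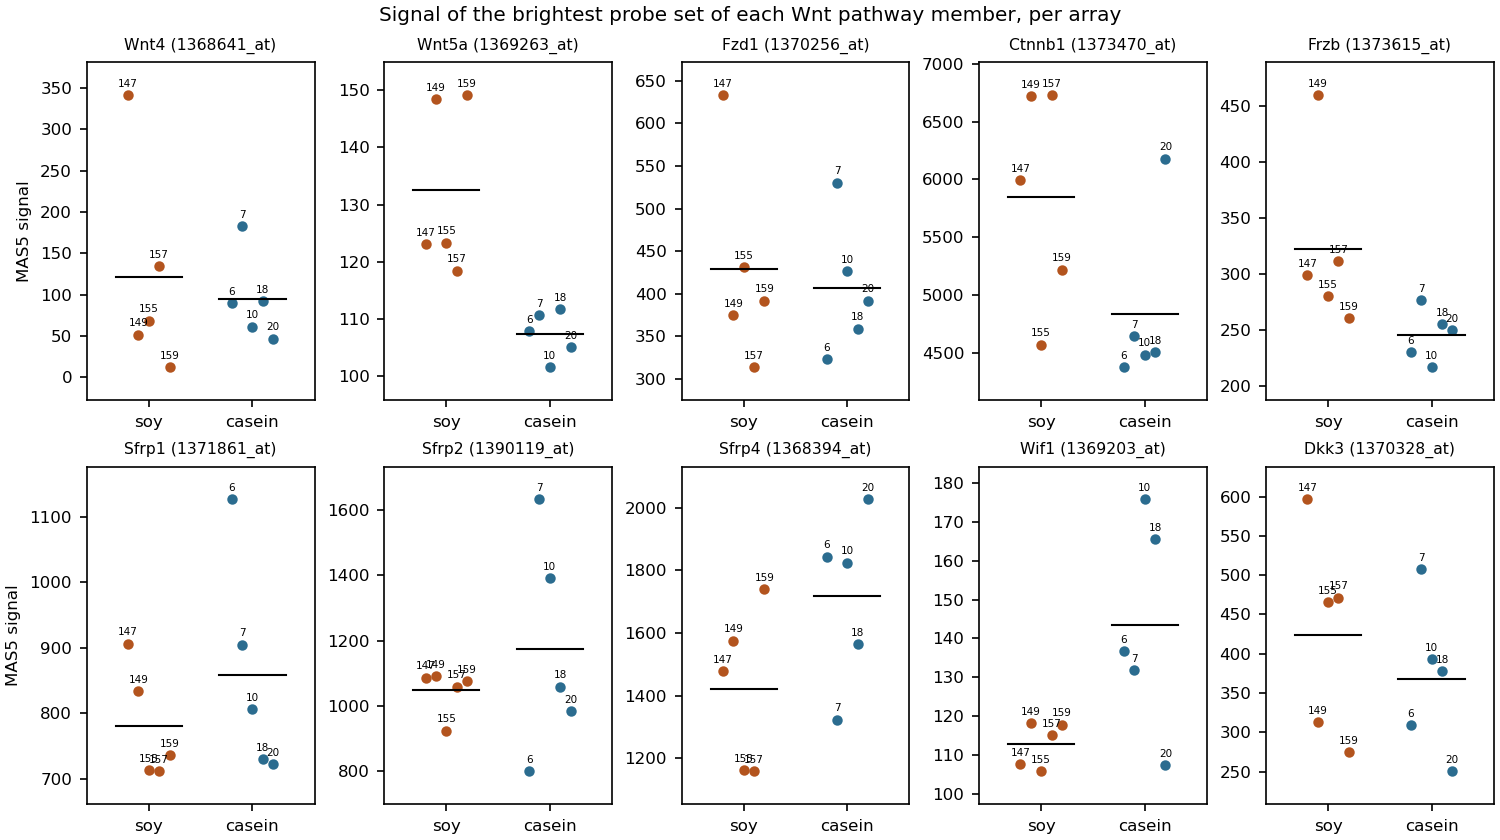
MAS5 signal (vertical axis, linear, not starting at 0, its own scale in each panel) of the brightest probe set of each of the 10 members on each array, with soy arrays on the left and casein arrays on the right of a panel. Points are arrays with their numbers and bars are means over 5 arrays. The Wnt5a points of the diets do not overlap, while those of the other 9 members do.

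Wnt5a, the prototype noncanonical ligand, had signals of 123, 148.5, 123.3, 118.4 and 149.2 on soy 147, 149, 155, 157 and 159. On casein 6, 7, 10, 18 and 20 the signals were 107.8, 110.6, 101.5, 111.7 and 105. The lowest soy array thus lay above the highest casein array, and soy 149 and soy 159 stood above the other 3 soy arrays. The mean was 132.5 ± 15.1 on soy and 107.3 ± 4.17 on casein arrays (SD, n = 5 each). This is a log2 difference of 0.30 with a 95% interval of -0.01 to 0.61 in limma (unadjusted p = 0.0595, adjusted p = 0.862), which is 1.23-fold. The exact permutation test gave p = 0.0079, the smallest it can give. In this fit limma draws the spread of each probe set towards that of probe sets of like brightness. The within-diet SD of Wnt5a, 0.12 on the log2 scale, was at percentile 0.725 of the tenth of probe sets nearest in brightness, and without an intensity trend in the model the unadjusted p was 0.0148 (adjusted p = 0.826). The difference was 0.25 to 0.34 when any 1 array was left out. After quantile normalization it was 0.21, with an unadjusted p of 0.22 in limma.

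Wnt4, a ligand produced by luminal cells in response to progesterone in mice, varied most for its brightness among the brightest probe sets of the 10 members. Its signals were 341.8, 51.5, 68.2, 134.2 and 11.9 on soy 147, 149, 155, 157 and 159. The signals on casein 6, 7, 10, 18 and 20 were 89.2, 182.9, 60.9, 91.7 and 46.5. Soy 147 was the highest and soy 159 the lowest of all 10 arrays, so the casein range lay wholly within the soy range. Between the diets the log2 difference was -0.23 with an interval of -1.87 to 1.41 (adjusted p = 0.982 in limma, exact permutation p = 0.817). It was -0.79 without soy 147, 0.42 without soy 159 and 0.05 without casein 7. Both its size and its sign moved with the fit: it was -1.26 with the muscle and lymph node marker means as covariates (unadjusted p = 0.0652 in limma), -1.54 over the 2 soy and 4 casein arrays low in muscle markers (unadjusted p = 0.0781 in limma) and 0.05 with the luminal marker mean as a covariate. In bulk gland RNA, fewer cells of a type and less RNA per cell cannot be told apart.

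Fzd1, a membrane-spanning receptor for Wnt ligands, had signals of 633.5, 374.7, 431.5, 313.8 and 391.8 on soy 147, 149, 155, 157 and 159. On casein 6, 7, 10, 18 and 20 it had 323.2, 530.4, 426.9, 359.2 and 392.1. The diets overlapped throughout, with soy 147 and casein 7 the highest of their groups. Soy minus casein was 0.06 on the log2 scale with an interval of -0.36 to 0.48 (adjusted p = 0.982 in limma), and it was -0.09 without soy 147, 0.16 without soy 157, 0.16 without casein 7 and 0.12 with the luminal marker mean as a covariate.

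Ctnnb1, which encodes beta-catenin, a partner of cadherins at cell junctions as well as the nuclear effector of canonical signalling, had 4 probe sets that did not move together. At the brightest, 1373470_at, the signals were 5993.2, 6721.9, 4571.2, 6730 and 5219.3 on soy 147, 149, 155, 157 and 159. They were 4375.5, 4646.6, 4483.5, 4507.1 and 6179.7 on casein 6, 7, 10, 18 and 20. Casein 20 stood apart from the other casein arrays and lay above 3 of the 5 soy arrays. Soy minus casein was 0.27 on the log2 scale with an interval of -0.03 to 0.57 (adjusted p = 0.862 in limma, exact permutation p = 0.0952), and 0.36 without casein 20. Over the 2 soy and 4 casein arrays low in muscle markers it was -0.01. With the muscle and lymph node marker means as covariates over all 10 arrays it was 0.20 (unadjusted p = 0.223 in limma). The part of muscle cells in this difference was not tested.

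The second brightest Ctnnb1 probe set, 1373067_at, had signals of 3191.9, 6363.1, 2419.3, 7139.3 and 3055 on soy 147, 149, 155, 157 and 159, against 2776.1, 3126.8, 3669.1, 3277.1 and 5444.1 on casein 6, 7, 10, 18 and 20. Soy 149, soy 157 and casein 20 were high at both of these probe sets, which correlated over the 10 arrays with a Pearson r of 0.835 and a Spearman rho of 0.648. The within-diet spread of 1373067_at was at percentile 97.5 for its brightness, and its log2 difference was 0.18 with an interval of -0.48 to 0.85. Another probe set, 1369733_at, did not follow them, with an r of -0.04 against the brightest. Its mean was 764.5 ± 131.4 on soy and 760.3 ± 101.2 on casein arrays (SD, n = 5 each), a log2 difference of 0.0006 with an interval of -0.29 to 0.30. The fourth, 1375284_at, was at 5.3 to 40 on soy and 3 to 24.9 on casein arrays, at brightness percentile 5.39 of all probe sets. Averaged over its 4 probe sets, Ctnnb1 had a log2 difference of 0.20 (adjusted p = 0.928 in limma).

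**Figure D2:**
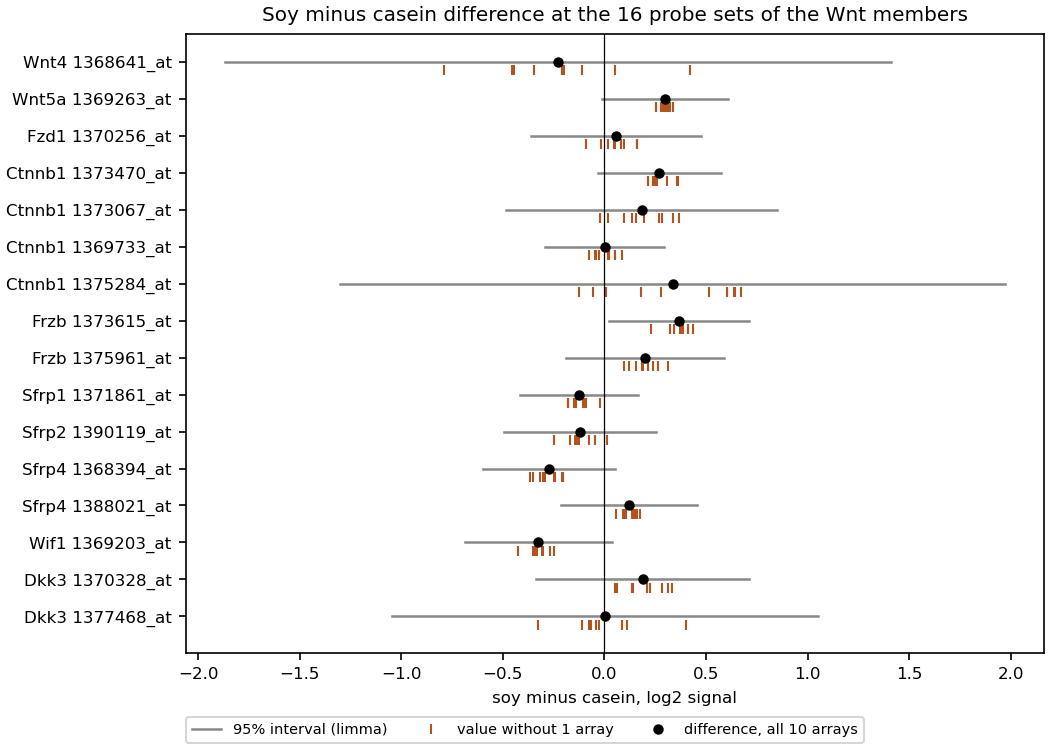
Soy minus casein difference on the log2 scale (horizontal axis) at the 16 probe sets of the 10 members. Black points are the differences over all 10 arrays, grey lines their 95% intervals from limma and short brown bars the values with 1 array left out. Frzb 1373615_at was the 1 probe set whose interval lay wholly above 0.

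Frzb, also called Sfrp3, binds Wnt ligands through a domain that resembles the ligand-binding part of Frizzled. At its brighter probe set, 1373615_at, the signals were 298.8, 459.7, 280.2, 311.5 and 260.5 on soy 147, 149, 155, 157 and 159. The signals on casein 6, 7, 10, 18 and 20 were 229.9, 276.7, 216.6, 254.9 and 249.5. The 4 highest signals came from soy arrays, and casein 7 lay above soy 159 alone. On the log2 scale soy minus casein was 0.37 with an interval of 0.02 to 0.71, a 1.29-fold difference (unadjusted p = 0.0394, adjusted p = 0.862 in limma, exact permutation p = 0.0159). Soy 149 set much of its size, as the difference was 0.23 without that array (unadjusted p = 0.0838 in limma) and 0.32 to 0.44 without any other. Over the 6 arrays low in muscle markers it was 0.12, and without soy 149 and casein 6, the arrays low in lymph node signal, it was 0.21. With the muscle and lymph node marker means as covariates over all 10 arrays it was 0.37 (unadjusted p = 0.0549 in limma). The other probe set, 1375961_at, had signals of 162 to 298 on soy and 157.3 to 230.2 on casein arrays. Its log2 difference was 0.20 (interval -0.19 to 0.59), and its diets overlapped. It was 0.42 with the muscle and lymph node marker means as covariates (unadjusted p = 0.0223 in limma) and 0.02 without soy 149 and casein 6.

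Of the 60 relations computed between members and marker lists, that of Frzb with nerve sheath cell markers had the largest Pearson r in size. The mean log2 signal of the 10 measured of 12 listed nerve and Schwann cell markers was 9.39, 9.891, 9.14, 9.415 and 8.672 on soy 147, 149, 155, 157 and 159, and 8.922, 9.113, 9.141, 8.996 and 8.902 on casein 6, 7, 10, 18 and 20. Over the 10 arrays it correlated with Frzb 1373615_at with a Pearson r of 0.839 (permutation p = 0.00568, adjusted p = 0.215 over the 60 relations computed) and a Spearman rho of 0.661 (permutation p = 0.044, adjusted p = 0.294). Without soy 149 and soy 159, the arrays farthest from the median of the markers, r was 0.722. Soy 149 was the highest array for both. With the endothelial markers Frzb had an r of 0.696 (permutation p = 0.0705, adjusted p = 0.35), which was -0.13 without soy 149 and casein 20. No r with the diet means removed was computed for the marker lists. The part of nerve sheath or endothelial cells in the Frzb difference was not tested.

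Sfrp1, Sfrp2 and Sfrp4 belong to the same family of secreted Frizzled-related proteins as Frzb. Sfrp1 had signals of 906.1, 833.2, 713.2, 710.9 and 735.6 on soy 147, 149, 155, 157 and 159, and of 1127.2, 905, 806.6, 730.2 and 722.1 on casein 6, 7, 10, 18 and 20. Casein 6 was the highest array, and the other 4 casein arrays lay within the soy range. The log2 difference was -0.12 with an interval of -0.41 to 0.17 (adjusted p = 0.918 in limma), and -0.02 without casein 6.

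Sfrp2 had signals of 1086, 1090.2, 924, 1058.2 and 1076.3 on soy 147, 149, 155, 157 and 159, and of 798.7, 1633.3, 1391.2, 1058.2 and 984.3 on casein 6, 7, 10, 18 and 20. The casein arrays spanned both ends of the range, and the soy arrays lay close together apart from soy 155. The SD was 69.8 around a mean of 1046.9 on soy and 334.8 around 1173.1 on casein arrays. The log2 difference was -0.12 (interval -0.49 to 0.25, adjusted p = 0.941 in limma) and was 0.01 without casein 7, -0.05 without casein 10, -0.08 without soy 155 and -0.25 without casein 6. Over the arrays low in muscle markers it was -0.32.

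Sfrp4 was measured by probe sets that gave opposite signs. At the brighter, 1368394_at, the signals were 1478.7, 1575.4, 1161, 1157.8 and 1738.9 on soy 147, 149, 155, 157 and 159. On casein 6, 7, 10, 18 and 20 they were 1843.7, 1323.4, 1823.8, 1564.3 and 2026.7. Soy 155 and soy 157 lay below every casein array, while the other 3 soy arrays lay within the casein range. The log2 difference was -0.27 with an interval of -0.60 to 0.05 (adjusted p = 0.862 in limma, exact permutation p = 0.127) and ran from -0.37 to -0.21 without 1 array. With the luminal marker mean as a covariate it was -0.33 (unadjusted p = 0.0183, adjusted p = 0.803 in limma). With the muscle and lymph node marker means as covariates it was -0.16, and averaged over both probe sets of the gene it was -0.08 (adjusted p = 0.941 in limma). The dimmer probe set, 1388021_at, was at 116 to 153.9 on soy and 108.7 to 138.3 on casein arrays, with a log2 difference of 0.12 (interval -0.21 to 0.45), and it correlated with the brighter one with a Pearson r of -0.171.

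Wif1, which binds Wnt ligands through a domain unrelated to Frizzled, had signals of 107.6, 118.2, 105.8, 115.1 and 117.8 on soy 147, 149, 155, 157 and 159. On casein 6, 7, 10, 18 and 20 the signals were 136.7, 131.8, 175.8, 165.6 and 107.5. All casein arrays but casein 20 lay above every soy array. The mean was 112.9 ± 5.82 on soy and 143.5 ± 27.4 on casein arrays (SD, n = 5 each). On the log2 scale soy minus casein was -0.33 with an interval of -0.69 to 0.04 (unadjusted p = 0.0742, adjusted p = 0.862 in limma, exact permutation p = 0.0397). It ran from -0.42 without casein 20 to -0.25 without casein 10, and was -0.41 after quantile normalization, where the unadjusted p was 0.035 in limma.

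Dkk3 is a member of the Dickkopf family that, unlike its relatives, is not an established blocker of the Wnt co-receptor Lrp6. Its brighter probe set, 1370328_at, had signals of 596.8, 312.5, 465.4, 471.2 and 274.3 on soy 147, 149, 155, 157 and 159. The signals on casein 6, 7, 10, 18 and 20 were 309.5, 507.5, 393.5, 377.9 and 250.1. The diets overlapped throughout, with soy 147 and casein 7 again the highest of their groups. Soy minus casein was 0.19 on the log2 scale with an interval of -0.34 to 0.71 (adjusted p = 0.933 in limma) and was 0.05 without soy 147, 0.06 without casein 20, 0.28 without soy 149, 0.33 without soy 159 and 0.32 without casein 7. With the luminal marker mean as a covariate it was 0.29 (unadjusted p = 0.0744 in limma), and with the muscle and lymph node marker means as covariates it was -0.05. The other Dkk3 probe set was at 1.4 to 10.5 on all arrays, at brightness percentile 0.81 of all probe sets, and its diets overlapped.

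At their brightest probe sets, 3 members varied more between arrays of the same diet than 80% of probe sets of like brightness. The within-diet SD on the log2 scale was 1.37 for Wnt4, 0.43 for Dkk3 and 0.33 for Fzd1, at percentiles 96.4, 85.7 and 81 of the tenth of probe sets nearest in brightness. For Sfrp2, Sfrp4, Ctnnb1, Sfrp1 and Frzb the percentiles were 79.6, 71.6, 62.4, 53.8 and 48.4. Wif1 and Wnt5a were among the steadier signals, at percentiles 14.2 and 0.725.

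Epithelial marker signal differed between arrays of both diets, and every member was set against it. The mean log2 signal of the 14 measured of 15 listed luminal markers, among them Krt8, Krt18, Epcam and Cdh1, was 8.764, 6.76, 8.114, 8.073 and 5.977 on soy 147, 149, 155, 157 and 159, and 5.995, 9.325, 8.013, 8.525 and 7.528 on casein 6, 7, 10, 18 and 20. Soy 147 and casein 7, where Wnt4, Dkk3 and Fzd1 were the highest of their diets, had the highest luminal means of their diets. The Pearson r with the luminal mean was 0.721 for Wnt4 (permutation p = 0.015, adjusted p = 0.218 over 60 relations; Spearman rho 0.806, permutation p = 0.00753, adjusted p = 0.179). For Dkk3 it was 0.781 (permutation p = 0.00877, adjusted p = 0.215; rho 0.83, permutation p = 0.00449, adjusted p = 0.179). Without soy 159 and casein 6, the arrays farthest from the luminal median, r was 0.762 for Wnt4 and 0.738 for Dkk3. Fzd1 had a lower r of 0.582 with the luminal mean (permutation p = 0.0758, adjusted p = 0.35), and of 0.565 without soy 159 and casein 6. Its Spearman rho was 0.527 (permutation p = 0.124, adjusted p = 0.463). Sfrp2 had a luminal r of 0.584, much like Fzd1 (permutation p = 0.0731, adjusted p = 0.35), and a rho of 0.322 (permutation p = 0.361, adjusted p = 0.802). Sfrp4 ran the other way, with r of -0.52 (permutation p = 0.125, adjusted p = 0.468) and rho of -0.648 (permutation p = 0.0487, adjusted p = 0.294).

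The 11 measured of 13 listed basal and myoepithelial markers gave similar values for Wnt4 and Dkk3. Their r was 0.684 and 0.712 (permutation p = 0.0254 and 0.0224, adjusted p = 0.218 for each). Their rho was 0.663 and 0.754 (permutation p = 0.0405 and 0.0149, adjusted p = 0.294 and 0.179). Without soy 159 and casein 6 these r were 0.722 and 0.626. Fzd1 had an r of 0.594 with the basal markers (permutation p = 0.0677, adjusted p = 0.35) and a rho of 0.669 (permutation p = 0.0401, adjusted p = 0.294). Against the 14 adipocyte markers the r was -0.718 for Wnt4 and -0.76 for Dkk3 (permutation p = 0.0217 and 0.0107, adjusted p = 0.218 and 0.215; rho -0.794 and -0.77, permutation p = 0.00916 and 0.0132, adjusted p = 0.179 for each), and -0.632 and -0.665 without soy 147 and soy 149. Of the 60 relations, between 10 members and 6 marker lists, 0 had an adjusted p under 0.05. Muscle and lymph node markers split the arrays into separate clusters, so no pooled correlation was computed with them. The part of epithelial cells in the Wnt4, Dkk3, Fzd1, Sfrp2 and Sfrp4 values was not tested further.

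**Figure D3:**
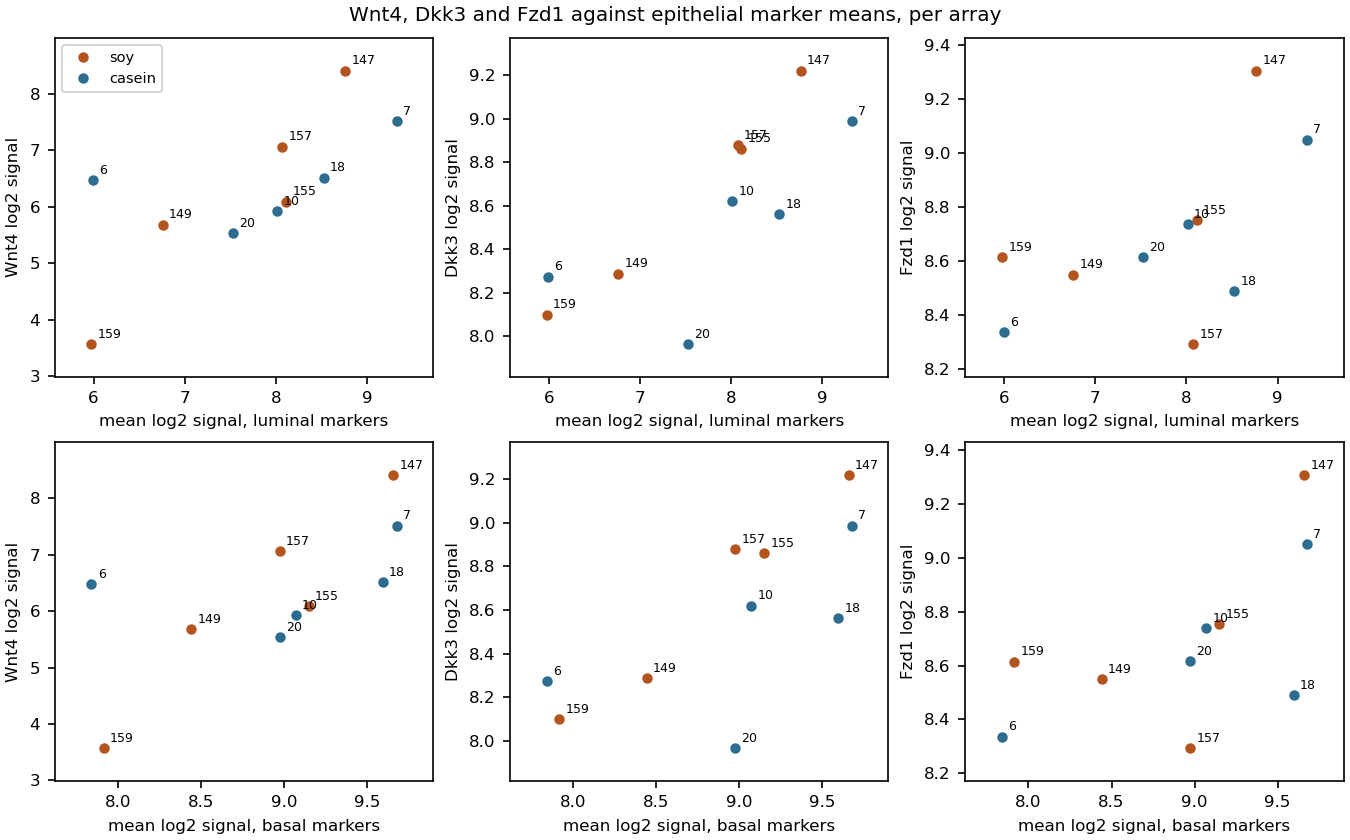
Log2 signal of Wnt4, Dkk3 and Fzd1 (vertical axes) against the mean log2 signal of 14 luminal markers (upper row, horizontal axes) and 11 basal markers (lower row), with 1 point per array, labelled by number, in brown for soy and blue for casein. Soy 147 and casein 7 lie at the upper right in every panel, and arrays of both diets are spread along the horizontal axes.

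Among the 45 pairs of members, Wnt4 and Dkk3 were the most alike, with a Pearson r of 0.809 over the 10 arrays (permutation p = 0.00307, adjusted p = 0.138; Spearman rho 0.855, permutation p = 0.00316, adjusted p = 0.142). It was 0.86 with the diet means removed and 0.734 without soy 147 and soy 159. Sfrp4 and Dkk3 ran in opposite directions, with r of -0.743 (permutation p = 0.0152, adjusted p = 0.228; rho -0.794, permutation p = 0.00827, adjusted p = 0.186), and -0.774 without soy 155 and soy 157. Wnt5a and Frzb had an r of 0.698 (permutation p = 0.0216, adjusted p = 0.243; rho 0.733, permutation p = 0.0209, adjusted p = 0.235), which was 0.857 without soy 149 and soy 159 but 0.399 once the diet means were removed. Ctnnb1 and Frzb had an r of 0.695 (permutation p = 0.00941, adjusted p = 0.212; rho 0.745, permutation p = 0.0175, adjusted p = 0.235), and 0.42 without soy 149 and soy 157. Fzd1 and Dkk3 had an r of 0.587 (permutation p = 0.0729, adjusted p = 0.547), which was -0.0437 without casein 7 and soy 147. No pair had an adjusted p under 0.05.

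The genes most like each member in pattern were found by Pearson r over the 10 arrays among 7150 other genes whose brightest probe set had a mean signal of 177.1 or more. They are a description, as the highest of so many values is high by selection. For Sfrp1 they were Dact2, a Dishevelled-binding protein, with r of 0.954, the clock gene Per2 with 0.946 and C1qtnf5 with 0.932. For Dkk3 they were Prickle2, a planar polarity protein, with 0.947, LOC100911253 with 0.941 and Nxn, a thioredoxin-like protein that binds Dishevelled, with 0.883. For Frzb they were Daam2, a formin that binds Dishevelled, with 0.917, Paqr6 with 0.892 and Tsc22d1 with 0.881. How many of the 7150 genes are tied to Dishevelled or planar polarity was not counted.

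For the other members with a mean signal of 177.1 or more, the genes were Snapc2, Wasl and Rdh10 for Fzd1 (r of 0.945, 0.942 and 0.942), and Rc3h1, Rab14 and Gipc2 for Ctnnb1 (0.941, 0.932 and 0.912). For Sfrp2 they were Lgals9, Xpnpep1 and Scaper (0.952, 0.891 and 0.883) and for Sfrp4 Cope, Ank2 and Gulp1 (0.89, 0.845 and 0.838).

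Other genes of the pathway were read at the brightest probe set of each. Of 117 listed genes 65 were measured, of which 26 had a positive and 39 a negative log2 difference, with a median of -0.03, against 8540 positive of 15866 probe sets (53.8%) and a median of 0.02 over all probe sets. None had an adjusted p under 0.05 in limma, and 3 (4.62%) had an unadjusted p under 0.05, against 5.31% of all probe sets. The diets overlapped for all 65, while they did not overlap at 0.996% of all probe sets. At the brightest probe set, 46 of the 65 had a mean signal at or above the 40th percentile. Of the genes named below, Wnt5b, Lgr5, Kremen1, Sost, Tle1, Ccn4 and Fosl1 were dimmer than that. Among the 10 members, 5 had a positive and 5 a negative difference at their brightest probe sets, with a median of -0.03.

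Of 5 other measured genes of ligands and their secretion, 3 were positive. Porcn, which adds the lipid to Wnt ligands, had signals of 176.9, 202.3, 225.7, 254.9 and 223.2 on soy 147, 149, 155, 157 and 159, and of 235.4, 172.7, 162.3, 112.5 and 142 on casein 6, 7, 10, 18 and 20. All soy arrays lay above all casein arrays but casein 6, and the log2 difference was 0.42 ± 0.20 (SE, n = 5 per diet, unadjusted p = 0.0518, adjusted p = 0.862 in limma). The canonical ligand Wnt2b was at 0.24, the dim Wnt5b at -1.05 and Wls, which carries Wnt ligands to the cell surface, at -0.14.

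Of 12 other receptors and partners, 3 were positive, with Lgr5, the R-spondin receptor, at 0.44, Ptk7 at -0.44, the Dickkopf receptor Kremen1 at -0.25 and Lrp6 at -0.14. Of 3 other antagonists, Igfbp4, an IGF-binding protein that can also inhibit Wnt signalling, had a difference of -0.38 ± 0.13 (SE, unadjusted p = 0.0124, adjusted p = 0.862 in limma), Sostdc1 of 0.26 and Sost, at signals of 11.4 or less, of 0.61. Igfbp4 signals were 1303.4 to 1764.8 on soy and 1606 to 2602.3 on casein arrays, and casein 20 was the array within the soy range.

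Inside the cell, 10 of 30 genes were positive. Csnk1a1, the kinase that primes beta-catenin for destruction, had a difference of -0.23 ± 0.10 (SE, unadjusted p = 0.0389, adjusted p = 0.862 in limma), with signals of 1783.6 to 2428 on soy and 2230.1 to 2721.5 on casein arrays. Ruvbl2 was at -0.25, Tle1, a co-repressor of TCF factors, at 0.26 and Usp34 at -0.12. Of 17 target genes 9 were positive. Ccn4, a matricellular protein also called Wisp1, had signals of 122 to 222.1 on soy and 71.3 to 140.8 on casein arrays and a difference of 0.60 ± 0.23 (SE, unadjusted p = 0.0234, adjusted p = 0.862 in limma). Axin2, the feedback inhibitor widely read as a sign of canonical signalling, had signals of 165.9 to 302.7 on soy and 241 to 316.4 on casein arrays and a difference of -0.26 ± 0.18 (SE, adjusted p = 0.877 in limma). Fosl1 was at 0.32 and Id2 at -0.42.

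**Figure D4:**
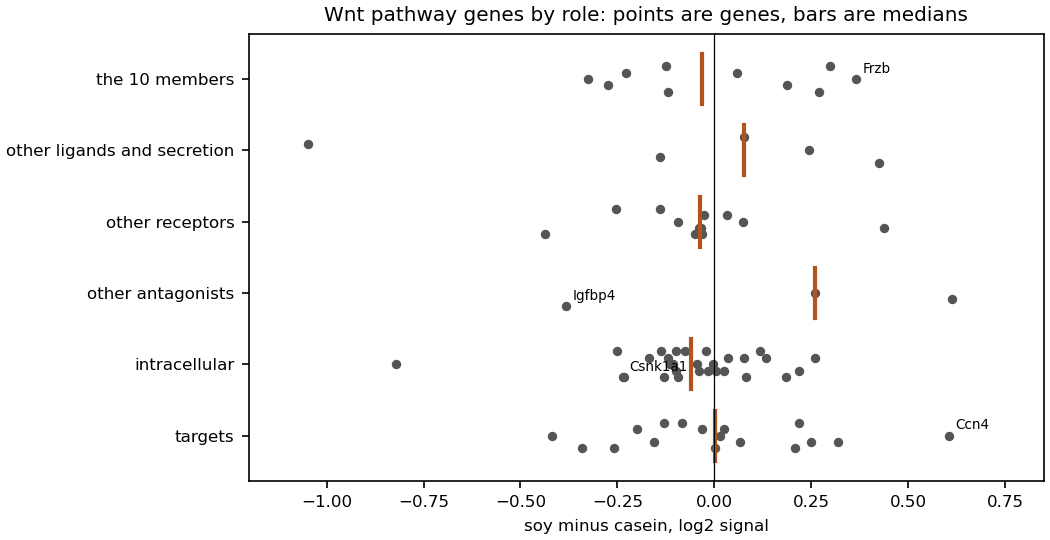
Soy minus casein difference on the log2 scale (horizontal axis) of the 10 members and of the other measured Wnt pathway genes by role, with 1 point per gene at its brightest probe set and a brown bar at each median. Names mark the genes with an unadjusted p under 0.05 in limma, Frzb, Igfbp4, Csnk1a1 and Ccn4, and every group holds points on both sides of 0.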

How the data were processed

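RNA from whole mammary glands was labelled with biotin and hybridised to 1-colour arrays, 1 per sample, per the labels' protocols. The deposited values are intensity signals on a linear scale, and the submitters' processing notes name MAS5 as the tool, with no version or settings. After 57 control probe sets were removed from 15923, the remaining 15866 name 1 gene (12783), several (312) or none (2771), and all 16 member probe sets matched the RefSeq gene table (GRCr8) with 0 symbols changed.

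The log2 of the signal, floored at 1, was analysed with no brightness filter. The diets were compared with limma 3.58.1 in R 4.3.3 (lmFit, eBayes with an intensity trend, two-sided, 95% intervals, Benjamini-Hochberg over all 15866). The steps were tested on simulated data. Gene lists were read at the brightest probe set of each gene, without a set test. Correlations used 100000 permutations. Precision is limited by there being 5 arrays per diet, with a median standard error of 0.186 for a log2 difference. Members and lists were chosen with earlier results of these data known. Genes named are all members, up to 4 genes of smallest p in each Wnt list, and the 3 genes most like each member at or above the 40th percentile.

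Alternatives included median centring, quantile normalization, a brightness filter (40th percentile), adding 16 before log2, no trend, array weights, marker means as covariates, averaging the probe sets of a gene and leaving out arrays.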

Additional observations from a re-analysis of the deposited data

Results flagged for a closer look

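Of 32 groups of 5 arrays, formed by 16 probe sets and both diets, 2 held an array far from the others on the log2 scale. There the gap to the nearest array was over 0.71 of the range, a share that chance passes in about 1 in 20 groups. The signals given next are linear. For Ctnnb1 at 1373470_at the signal of casein 20 was 6179.7, against 4375.5 to 4646.6 on the other casein arrays. For Sfrp2 the signal of soy 155 was 924, against 1058.2 to 1090.2 on the other soy arrays.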

How the results depend on the processing

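No alternative turned a probe set into a call: the count with an adjusted p under 0.05 in limma was 0 in the reported fit and under each of 20 alternatives, with 602 to 1266 unadjusted below 0.05 over the alternatives other than the brightness filter (433). No paired analysis was possible because soy and casein arrays share no replicate number. The median of the other Wnt genes ran from -0.0832 without soy 147 to -0.000782 without casein 7. The number of member probe sets with an unadjusted p under 0.05 in limma was 0 to 3 against 1 reported. It was 3 of 16 without an intensity trend (Wnt5a, Wif1 and Frzb), a fit in which 937 of all 15866 probe sets had such a p. Wnt5a (0.209 to 0.386), both Frzb (0.121 to 0.436 and 0.0191 to 0.422), Sfrp1, both Sfrp4 and Wif1 probe sets kept their sign under every alternative run for them.

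The sign turned as follows, and the cause was not tested. For the dim Dkk3 1377468_at (0.003 as reported) it did so under quantile normalization (-0.243), median centring (-0.0182), adding 16 (-0.0429), array weights (-0.155), the luminal covariate (-0.0182) and the muscle and lymph node covariates (-0.268), and for Dkk3 1370328_at under the same 2 covariates (-0.0522). With array weights Ctnnb1 was at -0.0533 (1373067_at), -0.0405 (1369733_at) and -0.0282 (1375284_at), and with median centring 1369733_at was at -0.0209. Wnt4 was at 0.0522 with the luminal covariate, against -1.26 with the muscle and lymph node covariates and -1.54 over the arrays low in muscle markers. Over the 6 arrays low in muscle markers Fzd1 was at -0.0395, Dkk3 at -0.053 and -0.293, and Ctnnb1 at -0.00692 (1373470_at), -0.476 (1373067_at), -0.117 (1369733_at) and -0.413 (1375284_at). Without soy 149 and casein 6, low in lymph node markers, Ctnnb1 was at -0.0703 (1373067_at), -0.0887 (1369733_at) and -0.386 (1375284_at). With 1 array left out the values ran from -0.791 to 0.42 for Wnt4, -0.0931 to 0.16 for Fzd1, -0.0226 to 0.368 for Ctnnb1 1373067_at, -0.0753 to 0.0853 for 1369733_at, -0.123 to 0.671 for 1375284_at, -0.247 to 0.0107 for Sfrp2 and -0.327 to 0.399 for Dkk3 1377468_at.

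Signal over background is not known without detection calls, and this limits Wnt4, Wnt5a, Wif1 and the dimmer probe sets most.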
